A study of Danio rerio with 14 samples.

Results

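Bulk RNA-seq of uninjured zebrafish hearts was used to compare, gene by gene, what *il11a* overexpression did to the cardiac transcriptome after days and after months. For each gene the effect was the log2 ratio of *il11a*OE over control within a time point, and the quantity described is the effect at 7 months post treatment (7 mpt) minus the effect at 7 days post treatment (7 dpt). All 14 of the 14 libraries entered this difference. Control fish carried *actb2:loxp-BFP-stop-loxp-il11a* without CreER, and *il11a*OE fish carried the same allele together with *cmlc2:creER*. All fish were adult, of the outbred Ekkwill strain, and received 5 µM tamoxifen for 24 h, the controls included. The *cmlc2* promoter restricts CreER to heart muscle cells, and after recombination the *actb2* promoter drives *il11a* in them and their descendants. The 7 dpt groups held 3 libraries each and the 7 mpt groups 4 each. The methods describe 3 pools of hearts per group as biological replicates at either time point, which does not match the 4 libraries at 7 mpt. Labels and methods name hearts at both time points, but the paper's results name ventricles at 7 dpt and hearts at 7 mpt. At 7 mpt the sample names carry a letter, F for replicates 1 and 2 and M for replicates 3 and 4, which the labels do not define. The labels do not say that replicates came from separate animals, so p-values measure the spread between these libraries.

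Interleukin 11 is a cytokine of the interleukin 6 family that signals through its own receptor and the shared chain gp130, which activates JAK kinases and the transcription factor STAT3. In the zebrafish heart *il11* genes are induced by injury and support regeneration, whereas in mammals the same cytokine is known for driving fibroblast activation and matrix deposition. Cardiomyocytes that divide again pass through DNA replication and mitosis, and fibroblasts and epicardium-derived cells lay down collagen and matricellular proteins.

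The libraries of 7 dpt held 61691132 to 80703699 counted fragments and those of 7 mpt 73275884 to 130058630 counted mates. Because of this difference in counting, levels in CPM (a gene's counts scaled to a common library size) are given within a time point and are not compared between time points. Time since induction, the age of the fish and the count table moved together. Their parts in a difference between the time points cannot be told apart. The labels do not give the sequencing runs. Any difference in run or in dissected tissue between the time points would move with these as well. Of the genes defining heart muscle, *myl7*, an atrioventricular myosin light chain, was high in all libraries but lower in *il11a*OE. At 7 dpt it was at 17000 to 18400 CPM in control and at 9930 to 12200 CPM in *il11a*OE. At 7 mpt it was at 13300 to 22000 CPM in control and at 4680 to 6810 CPM in *il11a*OE. Control replicate 2 of 7 dpt stood apart: 172 genes were at 5 CPM or more and over 10 times both other controls, against 1 to 17 such genes in the other libraries. Of these genes, 5 were called in the difference, and they are given without that library further on. In bulk samples, fewer cells of a type and less RNA per cell cannot be told apart.

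*il11a* itself (ENSDARG00000037859, chromosome 16 from 12611362 to 12617155, GRCz11) was induced at both time points. At 7 dpt it was at 47.3, 41.6 and 53.7 CPM in control and at 385.5, 325.5 and 369.8 CPM in *il11a*OE. At 7 mpt it was at 70.7, 90.5, 41.0 and 41.2 CPM in control and at 340.4, 261.7, 335.6 and 433.4 CPM in *il11a*OE. Every *il11a*OE library lay above every control library of its time point. The effect was 2.92 at 7 dpt and 2.49 at 7 mpt, and the difference of -0.44 (standard error, SE, 0.36, 95% interval -1.21 to 0.33) did not pass the threshold (edgeR adjusted p = 0.542). With the F libraries alone at 7 mpt the difference was -0.995, and with the M libraries alone it was 0.29. Reads of the transgene and of the endogenous gene are counted together.

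**Figure D1:**
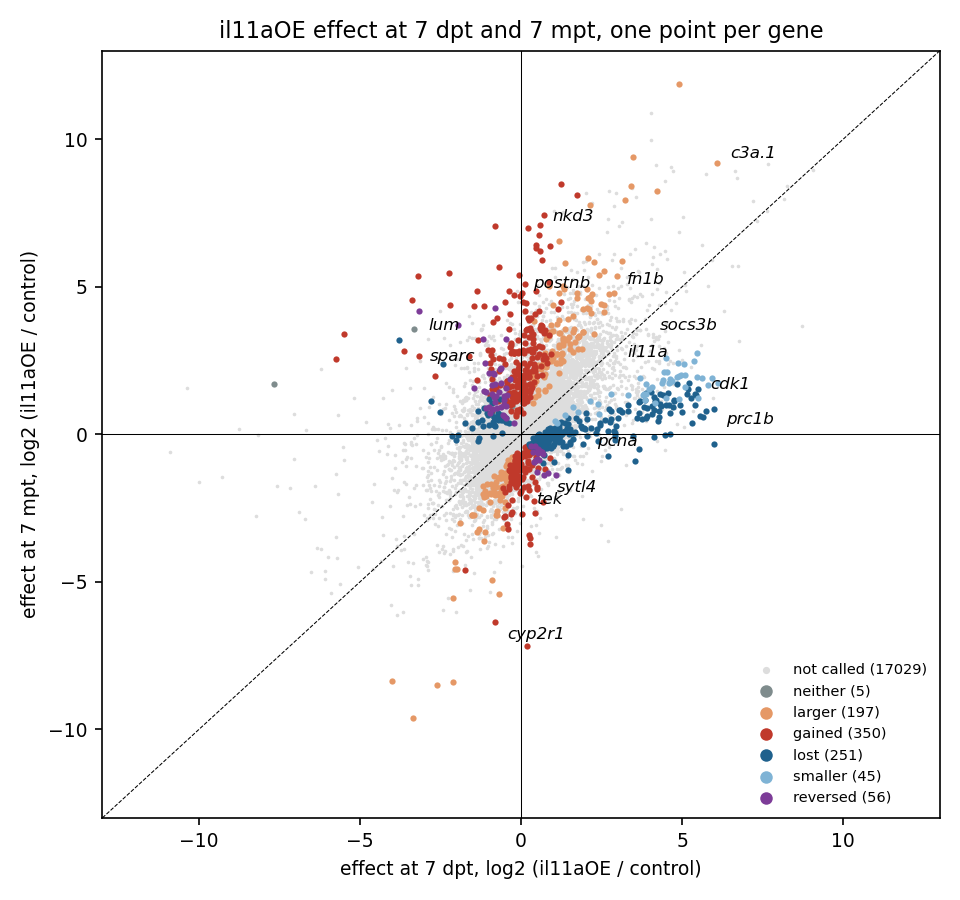
Effect at 7 dpt (x axis) and at 7 mpt (y axis), both log2 *il11a*OE over control, 1 point for each of the 17933 genes tested at both time points. The dashed line marks equal effects, colours mark the classes of the called genes, and the 56 reversed genes lie where one effect is above 0 and the other below 0.

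The effect of *il11a*OE differed between 7 dpt and 7 mpt for 940 of 21317 genes tested, 4.41% (edgeR's quasi-likelihood test, adjusted p under 0.05). The difference was above 0 for 456 genes, 2.14% of those tested, and below 0 for 484, 2.27%. At an unadjusted p under 0.05 there were 4404 genes. The median difference over all genes was 0.01 on the log2 scale, and its median SE was 0.48. Called genes were sorted by which of the time points, fitted alone, called an effect, where 37.2% of genes were called at 7 dpt and 26.4% at 7 mpt. The largest class was the 364 genes with an effect gained at 7 mpt, of which 242 moved upwards and 122 downwards. The effect was lost for 256 genes, 210 of them with a difference below 0, and it kept its direction but was smaller for 45. It kept its direction and was larger for 197 genes, and for 56 genes it was called at both time points in opposite directions. For 22 called genes neither time point called an effect on its own.

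These counts depended on each library of 7 dpt, where a group held only 3. Without control replicate 1, 2 or 3 of 7 dpt, 475, 438 and 478 genes were called, and without *il11a*OE replicate 1, 2 or 3 of 7 dpt, 370, 415 and 407. Without a library of 7 mpt the count ran from 723 to 1393, the highest without control replicate 1, where 739 genes were called above 0. With the F libraries alone at 7 mpt 1078 genes were called and with the M libraries alone 2328, of which 551 and 782 were among the 940.

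Most shared effects showed no called change. Of 3142 genes called at both time points, 3080 had the same direction, 1592 higher and 1488 lower in *il11a*OE. The difference was called for 242 of the 3080, a larger share than the 4.41% of all genes tested. For 1186 of the 3080 the 95% interval of the difference lay within 1 log2 unit either side of 0, 435 of them higher and 751 lower in *il11a*OE. Of all 21317 genes tested, 6231 had an interval within this bound, a smaller share. Across the 17933 genes tested at both time points, the effects had a Pearson correlation of 0.585, a description over genes that share libraries.

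**Figure D2:**
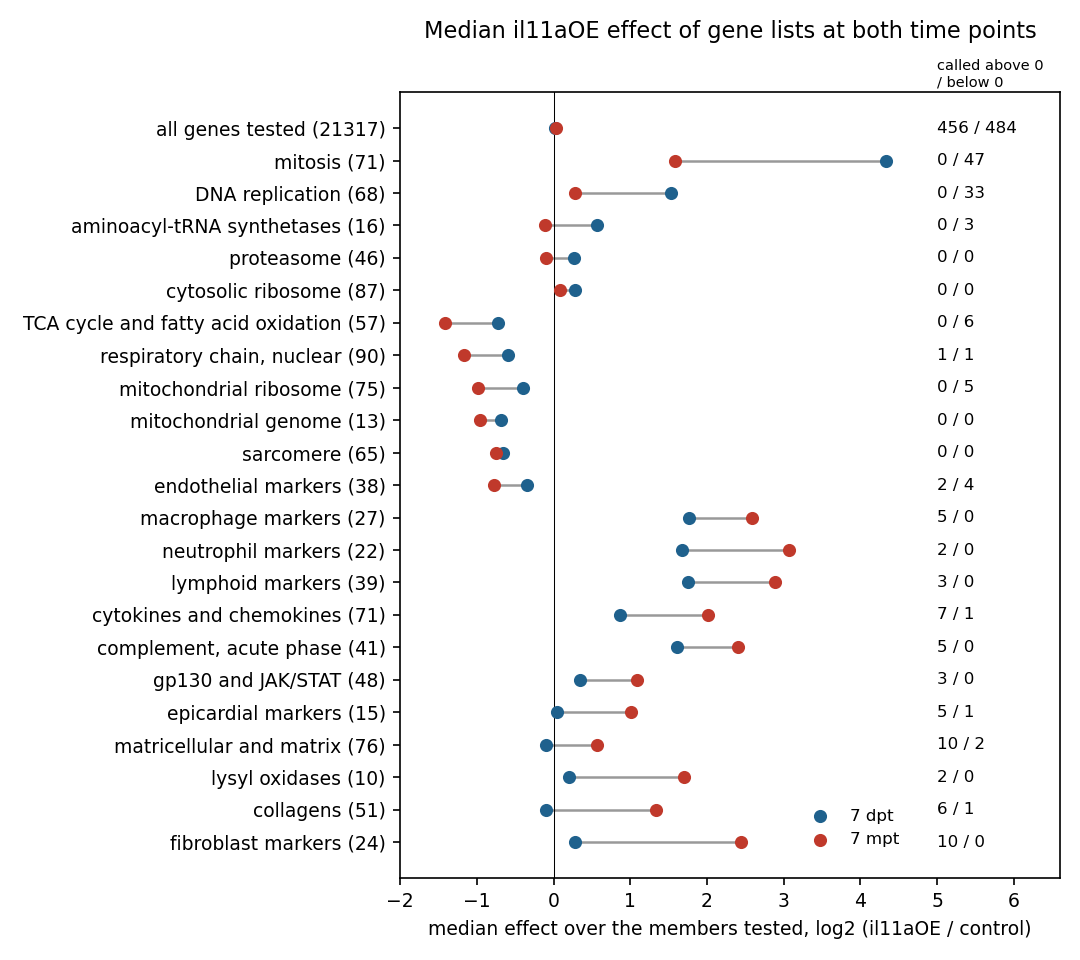
Median effect of gene lists at 7 dpt (blue) and 7 mpt (red), log2 *il11a*OE over control, with the number of members tested in brackets and the members whose difference was called above or below 0 at the right. The mitosis list moved from 4.33 to 1.59 and the fibroblast marker list from 0.28 to 2.44, while all genes tested stayed near 0.

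Cell division genes had the lowest median difference of the 52 gene lists examined. Among 71 genes of the mitotic spindle, kinetochore and cytokinesis, the difference was called below 0 for 47 (66.2%, against 2.27% of all genes) and above 0 for 0. The median effect of this list was 4.33 at 7 dpt and 1.59 at 7 mpt, and the median difference was -2.70, against 0.01 over all genes. At 7 dpt 70 members were called higher in *il11a*OE and none lower, and at 7 mpt 34 were called higher and none lower, where 20.2% and 14.2% of all genes were called higher. Of the 47 changed members, 23 lost their called effect and 24 kept a smaller one. Effects by library were also formed, as log2 of each *il11a*OE library's CPM over the mean of its controls, with 0.1 CPM added to both. The added CPM shrinks the effect of low genes, so these medians are another measure than the fitted ones. Library by library, the median effect of the list was between 3.64 and 4.03 at 7 dpt and between 0.66 and 1.92 at 7 mpt. The time points thus did not overlap. Over all genes tested, the library effects of the time points overlapped for 61.3%, lay lower at 7 mpt for 20.1% and higher for 18.6%. The count of called members was 25, 27 and 31 without control replicate 1, 2 or 3 of 7 dpt and 31, 27 and 27 without *il11a*OE replicate 1, 2 or 3.

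*cdk1*, the kinase that drives entry into mitosis, was at 1.19, 1.02 and 0.868 CPM in control and at 39.4, 48.6 and 49.9 CPM in *il11a*OE at 7 dpt. The 7 mpt libraries held it at 1.21, 1.45, 3.00 and 2.52 CPM in control and at 3.24, 3.46, 7.88 and 4.77 CPM in *il11a*OE. The groups were separate at both time points, but the gap was far narrower at 7 mpt. Its effect fell from 5.48 to 1.25, a difference of -4.24 (SE 0.51, edgeR adjusted p = 8.08e-04). *prc1b*, which bundles the microtubules of the central spindle, had the smallest p among mitosis genes. It was at 0.597, 0.746 and 0.617 CPM in control and at 35.7, 47.0 and 41.0 CPM in *il11a*OE at 7 dpt, and at 1.1, 1.49, 3.75 and 3.11 against 3.84, 3.28, 5.04 and 4.75 CPM at 7 mpt. The 7 mpt groups overlapped, and the difference was -5.14 (SE 0.52, edgeR adjusted p = 2.20e-04). *anln*, the anillin of the contractile ring, had a difference of -5.07 (SE 0.51, edgeR adjusted p = 2.20e-04).

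*kif23*, a kinesin of cytokinesis, was at 5.26, 4.16 and 7.86 CPM in control and at 32.7, 40.8 and 38.2 CPM in *il11a*OE at 7 dpt. In the 7 mpt libraries it was at 9.29, 9.24, 10.1 and 10.9 CPM in control and at 4.92, 3.92, 8.81 and 6.32 CPM in *il11a*OE. The *il11a*OE libraries thus lay above control at 7 dpt and below control at 7 mpt, although the effect of -0.72 at 7 mpt was not called (edgeR adjusted p = 0.054). Its difference was -3.42 (SE 0.38, edgeR adjusted p = 5.54e-04). The mitotic kinase gene *plk1*, whose exons overlap another gene on the opposite strand, had a difference of -2.45 (SE 0.45, edgeR adjusted p = 0.0100). *hmmr*, a hyaluronan and microtubule binding protein of the spindle, had a difference of -4.41 (SE 0.68, edgeR adjusted p = 0.0042). *ccnb1*, the B-type cyclin partner of Cdk1, had a difference of -4.02 (SE 0.85, edgeR adjusted p = 0.0186). Its call was lost without control replicate 1 or 2 or *il11a*OE replicate 3 of 7 dpt, where the adjusted p reached 0.0624 over the alternatives. *mki67*, the proliferation marker Ki-67, kept a called effect at both time points, 3.61 and 2.14, and its difference of -1.47 (95% interval -2.73 to -0.21) was not called (edgeR adjusted p = 0.173).

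Most DNA replication genes with a called difference were no longer called at 7 mpt. Of 68 genes of DNA replication and linked repair, 33 were called below 0 (48.5%, against 2.27% of all genes) and 0 above 0. Of the 33, 32 lost their called effect. The median effect was 1.53 at 7 dpt, with 60 members called higher and 1 lower, and 0.28 at 7 mpt, with 6 called higher and 0 lower. Over all genes tested, 20.2% were called higher at 7 dpt and 14.2% at 7 mpt. By library the median effect was 1.49 to 1.57 at 7 dpt and -0.03 to 0.48 at 7 mpt. The called count was 21 to 24 without a library of 7 dpt, with 21 left without control replicate 3, *il11a*OE replicate 1 or *il11a*OE replicate 2, and 22 without *il11a*OE replicate 3.

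*pcna*, the sliding clamp of DNA polymerase, was at 24.5, 23.8 and 22.9 CPM in control and at 91.3, 91.5 and 96.7 CPM in *il11a*OE at 7 dpt. Months later it was at 26.7, 32.8, 25.3 and 32.1 CPM in control and at 24.5, 38.9, 36.0 and 32.9 CPM in *il11a*OE. The clear separation at 7 dpt was followed by overlapping groups at 7 mpt, and the difference was -1.81 (SE 0.21, edgeR adjusted p = 6.88e-04). *rrm1*, the large subunit of ribonucleotide reductase, moved in the same way, from 9.41, 9.29 and 9.41 against 51.5, 50.4 and 52.3 CPM to 11.8, 16.5, 13.3 and 13.4 against 13.5, 21.6, 17.1 and 16.6 CPM, control named first. Its difference was -2.15 (SE 0.21, edgeR adjusted p = 2.06e-04). *esco2*, an acetyltransferase of sister chromatid cohesion, kept a smaller effect, 4.16 at 7 dpt and 1.05 at 7 mpt.

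**Figure D3:**
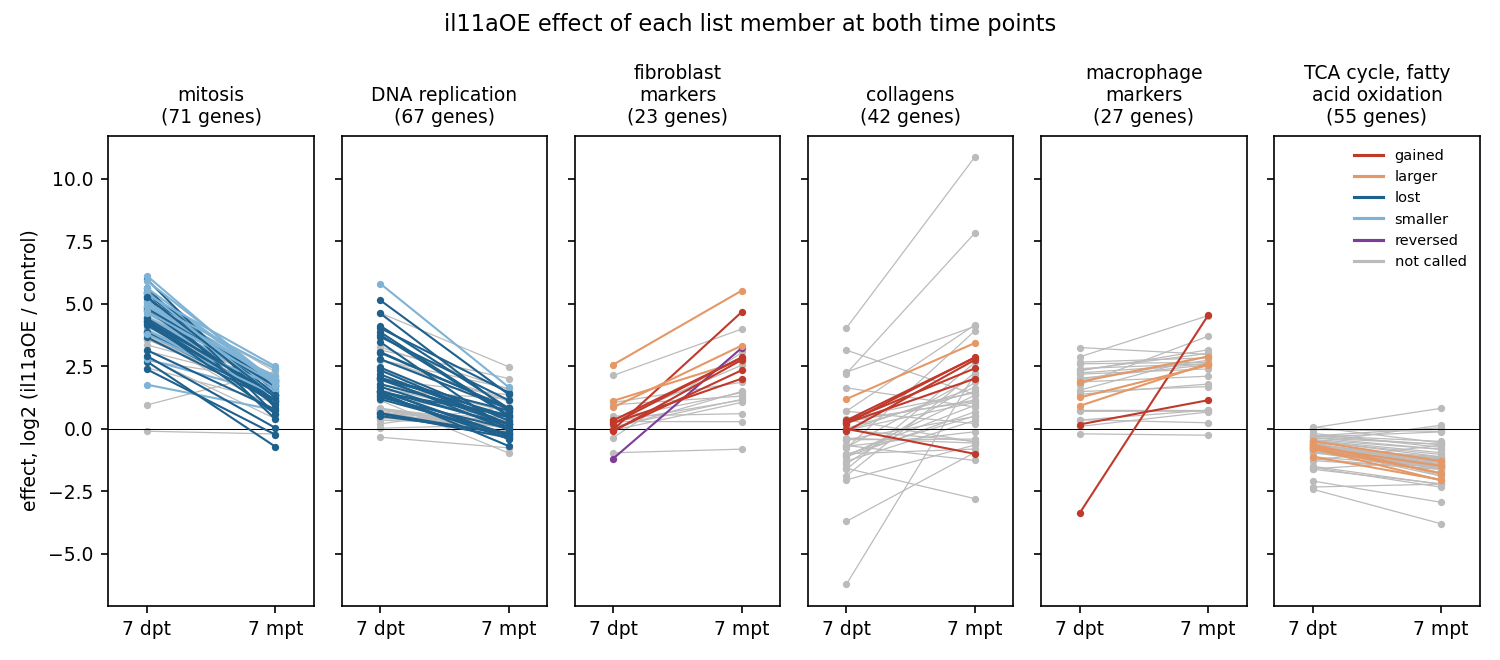
Effect of each list member at 7 dpt and 7 mpt, log2 *il11a*OE over control, 1 line per gene tested at both time points, coloured by class and grey where the difference was not called. Nearly all lines of the mitosis and replication lists run downwards, and those of the fibroblast marker and collagen lists mostly upwards.

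Matrix and fibroblast genes showed the opposite course. Of 24 fibroblast markers, 10 were called above 0 (41.7%, against 2.14% of all genes) and 0 below 0. Their median effect was 0.28 at 7 dpt, with 6 members called higher and 2 lower, and 2.44 at 7 mpt, with 21 called higher and 1 lower. By library the median effect of this list was 0.12 to 0.47 at 7 dpt and 1.82 to 2.33 at 7 mpt. Of 51 collagen chain genes tested, 6 were called above 0 and 1 below 0, against 2.14% and 2.27% of all genes. The median effect of the collagen list was -0.10 at 7 dpt and 1.34 at 7 mpt. At 7 dpt 11 collagen genes were called lower in *il11a*OE and 4 higher, and at 7 mpt 16 were called higher and 2 lower. Over all genes tested, 20.2% were called higher and 17.1% lower at 7 dpt, and 14.2% higher and 12.2% lower at 7 mpt. Without control replicate 1 of 7 mpt 11 collagen genes were called above 0. The lysyl oxidases, which crosslink collagen, had 2 of 10 members called above 0, *loxl1* and *loxl2a*. With the F libraries alone at 7 mpt neither was called, and the adjusted p of *loxl1* was 0.0507 (edgeR). The call of *loxl2a* was also lost without control replicate 2 or 3 or *il11a*OE replicate 1 or 3 of 7 dpt. It was lost with the replicate number as a block too, with an adjusted p of up to 0.0864 over the alternatives (edgeR). Of 19 fibroblast and fibrosis genes that the study names from these libraries, 6 were called above 0 and 0 below 0. A list chosen on these samples is not independent evidence of its direction. The other gene lists were chosen with earlier results of these data known, so their shares are descriptions too.

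*postnb*, a periostin gene of activated fibroblasts and perivascular cells, had the second smallest p of all genes with a symbol. At 7 dpt it was at 72.9, 81.6 and 54.9 CPM in control and at 68.7, 50.9 and 85.2 CPM in *il11a*OE. By 7 mpt it was at 24.1, 47.6, 34.1 and 38.7 CPM in control and at 990.7, 1159, 672.3 and 864.9 CPM in *il11a*OE. The groups overlapped at 7 dpt and were far apart at 7 mpt, where the effect was 4.67, and the difference was 4.69 (SE 0.36, edgeR adjusted p = 5.11e-05). *plxdc2b*, a plexin domain membrane protein gene, had the smallest p. It was at 26.3 to 33.7 CPM in *il11a*OE and 34.4 to 41.2 CPM in control at 7 dpt, and at 105 to 160 CPM against 13.6 to 16.3 CPM at 7 mpt. Its difference was 3.40 (SE 0.23, edgeR adjusted p = 2.04e-05).

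Type I collagen followed the same course. *col1a1a* was at 120, 125 and 75.9 CPM in control and at 114, 130 and 129 CPM in *il11a*OE at 7 dpt, and at 249, 155, 154 and 231 CPM against 1823, 2140, 853 and 915.6 CPM at 7 mpt. The 7 dpt groups overlapped, and at 7 mpt the F libraries of *il11a*OE were the highest. Its difference was 2.63 (SE 0.44, edgeR adjusted p = 0.00596). The exons of *col1a1a* overlap a gene on the opposite strand, and reads that fell on both genes were left out of its counts. *col1a2* had a difference of 2.49 (SE 0.40, edgeR adjusted p = 0.00441). The median difference of the collagen list was 2.12 with the F libraries alone at 7 mpt and 1.29 with the M libraries alone, and that of the fibroblast markers 2.01 and 1.37.

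*sparc*, a collagen-binding matricellular protein, reversed its effect. At 7 dpt it was at 193, 185 and 140 CPM in control and at 109, 105 and 118 CPM in *il11a*OE, with every *il11a*OE library below control. At 7 mpt it was at 161, 133, 123 and 222 CPM in control and at 810.1, 1041, 619.5 and 487.8 CPM in *il11a*OE, with every *il11a*OE library above control. The effect of -0.64 at 7 dpt and of 2.21 at 7 mpt gave a difference of 2.83 (SE 0.35, edgeR adjusted p = 0.00101). *lum*, the small proteoglycan lumican, also reversed, from 13.1, 15.9 and 10.2 against 5.25, 4.79 and 7.12 CPM to 5.26, 1.12, 1.78 and 4.05 against 30.4, 22.7, 33.0 and 29.0 CPM, control named first. Its difference was 4.42 (SE 0.59, edgeR adjusted p = 0.00167).

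Of the other matrix genes given here, *fn1b* and *mmp14b* were already higher at 7 dpt and rose further. *fn1b*, a fibronectin gene, was at 665, 730 and 655 CPM in control and at 5002, 3906 and 6253 CPM in *il11a*OE at 7 dpt. The 7 mpt libraries held it at 428, 303, 366 and 475 CPM in control and at 11760, 10080, 11980 and 10110 CPM in *il11a*OE. The groups were apart at both time points, and the effect rose from 2.89 to 4.80, a difference of 1.91 (SE 0.26, edgeR adjusted p = 0.00176). The collagenase-activating membrane protease gene *mmp14b* rose from an effect of 0.93 to 3.71, a difference of 2.77 (SE 0.43, edgeR adjusted p = 0.00415). *mmp2*, the gelatinase that this protease activates, had no called effect at 7 dpt, with 135 to 166 CPM in control and 138 to 179 CPM in *il11a*OE. At 7 mpt *mmp2* was at 174, 105, 137 and 123 CPM in control and at 986.3, 1065, 1007 and 583.3 CPM in *il11a*OE, and its difference was 2.64 (SE 0.30, edgeR adjusted p = 6.84e-04). *ccn2b*, one of the connective tissue growth factor genes, was low at 7 dpt. It was at 1.13, 1.58 and 0.584 CPM in control and at 0.266, 0.632 and 0.573 CPM in *il11a*OE, where the groups overlapped. In the 7 mpt libraries it was at 0.255 to 0.895 CPM in control and at 7.48 to 19.3 CPM in *il11a*OE, a difference of 5.50 (SE 0.70, edgeR adjusted p = 0.0013).

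Of 76 matricellular, basement membrane and matrix assembly genes, 10 were called above 0 and 2 below 0, against 2.14% and 2.27% of all genes, with a median difference of 0.49. Those called above 0 numbered 12 with the F libraries alone at 7 mpt and 13 with the M libraries alone, and those below 0 numbered 0 and 8. The TGF-beta list held 25 genes, of which only the receptor gene *tgfbr2a* was called (4%, against 4.41% of all genes), with an effect of 1.12 at 7 dpt and 2.4 at 7 mpt. This call was lost with the F libraries alone at 7 mpt, where its adjusted p reached 0.0588 (edgeR). The list did not hold the related gene *tgfbr2l*, which was called and reversed, with a difference of 3.69 (95% interval 2.59 to 4.79). *tgfbr2l* was at 3.99 to 5.01 CPM in *il11a*OE and 5.46 to 6.98 CPM in control at 7 dpt. At 7 mpt it was at 2.58 to 7.98 against 0.311 to 0.862 CPM. *nkd3*, of the naked cuticle family that dampens Wnt signaling, had the largest difference among the 10 genes of smallest p above 0. It was at 0.225 to 0.728 CPM in all libraries of 7 dpt, and at 7 mpt at 0.0283 to 0.0895 CPM in control and 7.06 to 11 CPM in *il11a*OE, a difference of 6.50 (SE 0.60, edgeR adjusted p = 2.06e-04).

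**Figure D4:**
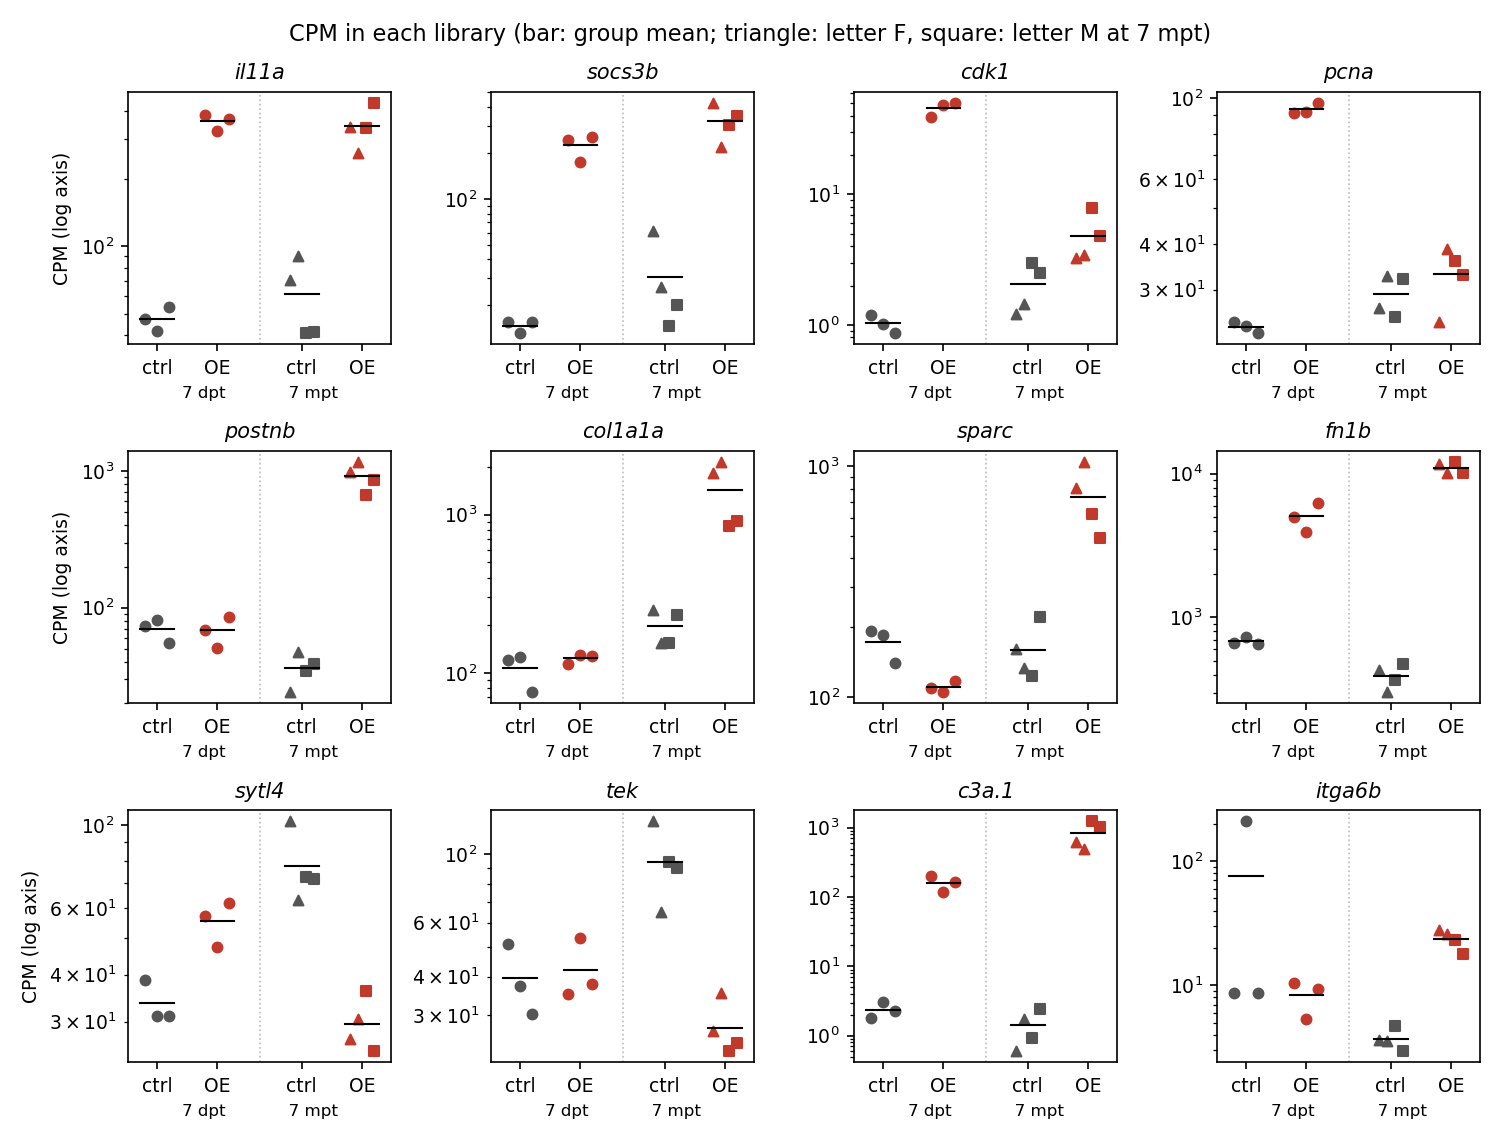
CPM of 12 genes in each of the 14 libraries on a log axis, control in grey and *il11a*OE in red, with group means as bars and, at 7 mpt, triangles for letter F and squares for letter M. *cdk1* and *pcna* part from control mainly at 7 dpt, *postnb* and *col1a1a* at 7 mpt, and *sparc* and *sytl4* change sides.

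The epicardial markers, genes of the outer layer of the heart, had 5 of 15 called above 0 and 1 below 0, against 2.14% and 2.27% of all genes. Their median effect was 0.05 at 7 dpt and 1.00 at 7 mpt. *wt1b*, the Wilms tumor transcription factor gene of activated epicardium, was at 2.48, 2.44 and 2.05 CPM in control and at 9.57, 10.6 and 12.3 CPM in *il11a*OE at 7 dpt. Months later it was at 3.22, 0.920, 2.02 and 0.934 CPM in control and at 52.0, 54.5, 52.9 and 34.8 CPM in *il11a*OE. All *il11a*OE libraries were above control at both time points, and the effect rose from 2.22 to 4.77, a difference of 2.55 (SE 0.50, edgeR adjusted p = 0.0134). Its exons overlap *kifc3* on the opposite strand. The epicardial markers called above 0 numbered 3 without control replicate 1 or 3 or *il11a*OE replicate 3 of 7 dpt or control replicate 2 or 4 or *il11a*OE replicate 1 or 2 of 7 mpt, and 2 without control replicate 2 or *il11a*OE replicate 1 or 2 of 7 dpt.

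Beside these results stand the summed levels of cell type markers. Summed CPM of the 24 fibroblast markers, each at above 0 in some library, was 1760 to 2139 in *il11a*OE and 1337 to 1736 in control at 7 dpt, and 6095 to 12780 against 1471 to 2337 at 7 mpt. This sum includes the collagen gene *col1a2*, at 156.5 to 242.7 CPM in control and 916 to 2038 CPM in *il11a*OE at 7 mpt, so it is not separate from the collagen result. Relative to the mean of controls the sum was 1.22 at 7 dpt and 4.91 at 7 mpt. The same ratio for the epicardial list was 1.58 and 2.39, for endothelial markers 1.1 and 0.707, and for smooth muscle markers 1.06 and 0.910. For the summed heart muscle genes it was 0.726 and 0.526. By library, however, the median effect of the 12 heart muscle genes was -0.53 to -0.36 at 7 dpt and -0.46 to -0.14 at 7 mpt. No difference of this list was called. The part of cell numbers in the collagen, matrix and epicardial results was not tested.

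**Figure D5:**
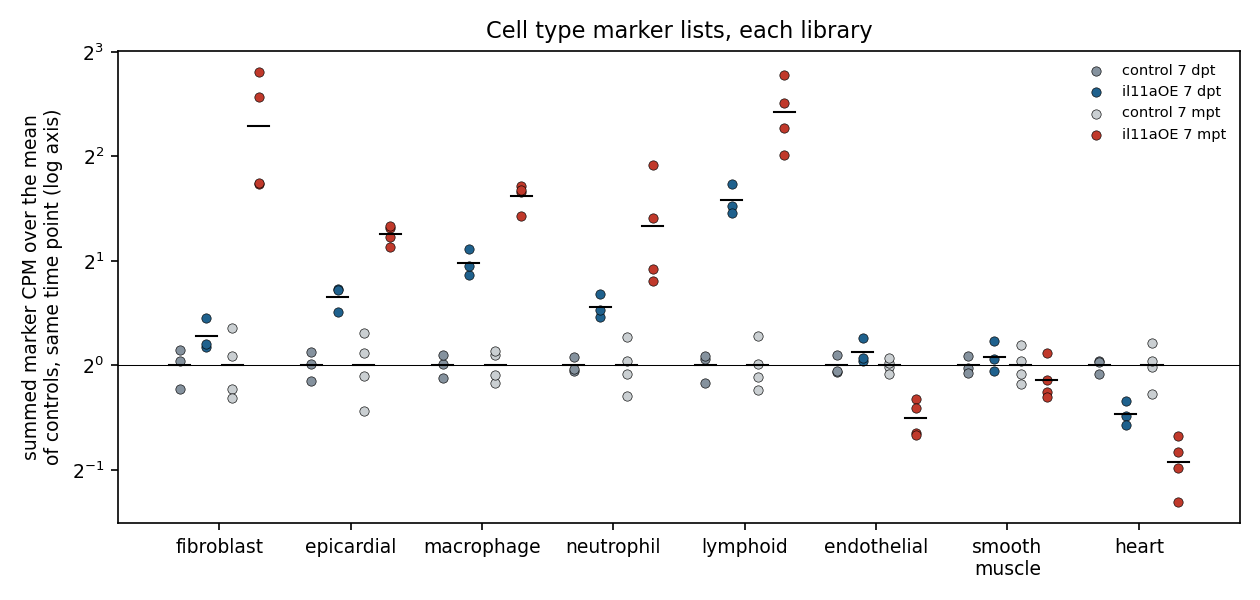
Summed CPM of marker lists in each library, divided by the mean of the controls of the same time point, on a log2 axis. Fibroblast markers in *il11a*OE lie at 1.13 to 1.37 at 7 dpt and at 3.33 to 6.99 at 7 mpt.

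Most leukocyte markers were called higher in *il11a*OE at both time points. Of 27 macrophage markers, 23 were called higher and 0 lower at 7 dpt and 22 higher and 0 lower at 7 mpt, with a median effect of 1.76 and 2.59. The difference was called above 0 for 5 (18.5%, against 2.14% of all genes) and below 0 for 0, and the median difference was 0.39. Only 1 of these calls was made without control replicate 2 or *il11a*OE replicate 1 or 2 of 7 dpt or *il11a*OE replicate 2 of 7 mpt, 2 or 3 without the other libraries of 7 dpt, control replicate 3 of 7 mpt or *il11a*OE replicate 1 or 3 of 7 mpt. Summed CPM of the macrophage markers over the control mean was 1.97 at 7 dpt and 3.09 at 7 mpt. For neutrophil markers this ratio was 1.48 and 2.53, and 2 of 22 members were called above 0, or 1 to 5 over the alternatives. For lymphocyte markers it was 2.99 and 5.37, and 3 of 39 were called above 0 (7.69%) and 0 below. Neutrophil markers were called higher for 15 of 20 genes at 7 dpt and 13 of 22 at 7 mpt, and lymphocyte markers for 25 of 37 and 25 of 38. Of the interferon genes, 15 of 43 were called higher at 7 dpt and 14 of 41 at 7 mpt, and 1 of 45 had a called difference. Over all genes 20.2% were called higher at 7 dpt and 14.2% at 7 mpt, and 4.41% had a called difference.

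*cd74a*, the invariant chain of MHC class II in antigen-presenting cells, was at 220, 208 and 156 CPM in control and at 335, 368 and 397 CPM in *il11a*OE at 7 dpt. By 7 mpt it was at 128, 89.3, 69.9 and 88.9 CPM in control and at 573, 567, 569 and 592 CPM in *il11a*OE. The groups did not overlap at either time point, and the effect rose from 0.91 to 2.61, a difference of 1.68 (SE 0.25, edgeR adjusted p = 0.00314). Of 71 cytokines, TNF superfamily members, chemokines and their receptors, 7 were called above 0 and 1 below 0, 11.3% of the list in either direction against 4.41% of all genes. *ccl25b*, a chemokine gene, was at 13.7, 32.3 and 23.0 CPM in control and at 76.3, 78.3 and 74.8 CPM in *il11a*OE at 7 dpt, and at 3.15, 1.53, 2.59 and 4.75 against 80.3, 101, 85.9 and 65.2 CPM at 7 mpt. Its effect rose from 1.73 to 4.79, a difference of 3.04 (SE 0.47, edgeR adjusted p = 0.00398). *cxcl12a*, a chemokine that guides cell migration and vessel growth, had a difference of 2.46 (SE 0.40, edgeR adjusted p = 0.00511). Without control replicate 1 of 7 mpt 11 cytokine genes were called above 0.

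Complement and acute-phase genes had 5 of 41 members called above 0 (12.2%, against 2.14% of all genes) and 0 below 0, or 3 above 0 without *il11a*OE replicate 2 of 7 dpt. *c3a.1*, a gene of the central complement component C3, was at 1.79, 3.07 and 2.24 CPM in control and at 200, 119 and 167 CPM in *il11a*OE at 7 dpt. At 7 mpt it was at 0.604, 1.75, 0.921 and 2.43 CPM in control and at 612.5, 499.5, 1230 and 1038 CPM in *il11a*OE. The groups were apart at both time points, and the effect rose from 6.10 to 9.21, a difference of 3.1 (SE 0.62, edgeR adjusted p = 0.0153). Without *il11a*OE replicate 2 of 7 dpt its adjusted p was 0.0536. *tfa*, a transferrin gene, was at 27.8 to 49.0 CPM in all libraries of 7 dpt. The 7 mpt libraries held it at 111, 15.7, 37.8 and 15.1 CPM in control and at 827.3, 1040, 2481 and 856.1 CPM in *il11a*OE, a difference of 4.39 (SE 0.91, edgeR adjusted p = 0.0183). This call was lost without *il11a*OE replicate 1, 2 or 3 of 7 dpt and with the F libraries alone at 7 mpt, with an adjusted p of up to 0.068. Summed CPM of 29 liver genes over the control mean was 0.497 at 7 dpt and 3.40 at 7 mpt, but *tfa* and *rbp4* made up most of this sum. In *il11a*OE replicate 3 of 7 mpt they held 2481 and 696.1 of 3311 CPM. By library the median effect of the 21 members tested was -0.29 to -0.08 at 7 dpt and -0.26 to 0.62 at 7 mpt. Of these genes *rbp4*, which encodes a retinol carrier, was at 280 to 347 CPM in *il11a*OE and 638 to 793 CPM in control at 7 dpt, and at 555 to 696 against 324 to 571 CPM at 7 mpt. *fga*, a fibrinogen chain gene, was at 0.376 to 1.98 CPM in *il11a*OE and at or below 0.0167 CPM in control at 7 dpt, and at 22.1 to 78.8 against 0 to 0.548 CPM at 7 mpt. The ferroxidase gene *cp* was at 0.738 to 1.35 against 0.0594 to 0.285 CPM at 7 mpt, while *fabp10a*, *apoa1b* and *fgb* were at no more than 1.87, 2.01 and 0.329 CPM in any library. The part of liver RNA in these results was not tested.

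A broad list of gp130, JAK and STAT genes held 3 called differences, and *jak1*, *stat3* and *socs3b* were not among them. Of 48 gp130 cytokine, receptor, JAK, STAT and SOCS genes, 3 were called above 0 (*lifrb*, *jak3* and the STAT-linked repressor gene *bcl6aa*) and 0 below 0, with a median difference of 0.22. This was 6.25% of the list, against 2.14% of all genes called above 0. The call of *bcl6aa* was lost without control replicate 1 or *il11a*OE replicate 2 or 3 of 7 dpt and with the F libraries alone at 7 mpt, with an adjusted p of up to 0.122 over the alternatives (edgeR). *lifrb*, a leukemia inhibitory factor receptor gene, was at 3.29, 4.04 and 4.00 CPM in control and at 15.9, 19.7 and 27.0 CPM in *il11a*OE at 7 dpt, and at 3.94, 3.72, 1.81 and 2.86 against 51.2, 63.0, 87.7 and 64.4 CPM at 7 mpt. Its effect rose from 2.47 to 4.43, a difference of 1.95 (SE 0.37, edgeR adjusted p = 0.0113). With the replicate number as a block this call was lost (edgeR adjusted p = 0.0537). *jak3*, a kinase of lymphoid cytokine receptors, rose from an effect of 0.79 to 2.28, a difference of 1.49 (SE 0.29, edgeR adjusted p = 0.0134).

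*socs3b*, the feedback inhibitor induced by STAT3, was at 15.5, 13.2 and 15.4 CPM in control and at 244, 175 and 254 CPM in *il11a*OE at 7 dpt. In the 7 mpt libraries it was at 61.6, 26.2, 14.7 and 19.9 CPM in control and at 422, 219, 305 and 352 CPM in *il11a*OE. It was apart from control at both time points, with effects of 3.93 and 3.40 and a difference of -0.53 that was not called (95% interval -1.70 to 0.64, edgeR adjusted p = 0.638). The difference was -0.37 for *stat3* (95% interval -0.98 to 0.24, edgeR adjusted p = 0.508) and 0.03 for *jak1* (95% interval -0.36 to 0.42, edgeR adjusted p = 0.954). *lepb*, a leptin gene of cardiac regeneration enhancers, was counted in no control library of 7 dpt and in 1 of 7 mpt. At 7 dpt it was at 0.753, 0.602 and 1.42 CPM in *il11a*OE, against 0 CPM in control. At 7 mpt it was at 7.13, 9.83, 14.8 and 19.3 CPM in *il11a*OE, against 0 to 0.0895 CPM in control. These levels come from unlike count tables and are not compared between time points. As the controls of *lepb* were at or near 0, no difference of folds is given.

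Energy metabolism genes were mostly called lower in *il11a*OE at both time points. Of 57 genes of the TCA cycle and fatty acid oxidation, 45 were called lower and 0 higher at 7 dpt and 48 lower and 1 higher at 7 mpt, against 17.1% and 12.2% of all genes called lower. Their median effect was -0.73 and -1.42, and 6 were called below 0 in the difference (10.5%, against 2.27% of all genes) and 0 above 0. By library the median effect was -0.66 to -0.83 at 7 dpt and -1.21 to -1.66 at 7 mpt, without overlap. The number called below 0 was 0 without control replicate 2 or 3 or *il11a*OE replicate 1 of 7 dpt, 1 without control replicate 1 of 7 dpt, 3 without *il11a*OE replicate 2 or 3 of 7 dpt or control replicate 3 of 7 mpt and 16 without control replicate 1 of 7 mpt. It was 0 with the F libraries alone at 7 mpt and 31 with the M libraries alone. *hadhaa*, a subunit gene of the mitochondrial trifunctional protein that oxidizes long-chain fatty acids, was at 582, 584 and 528 CPM in control and at 307, 226 and 249 CPM in *il11a*OE at 7 dpt. Months later it was at 514, 584, 637 and 579 CPM in control and at 173, 122, 142 and 124 CPM in *il11a*OE. It was below control in every *il11a*OE library, and the difference was -0.94 (SE 0.21, edgeR adjusted p = 0.0246). Its exons overlap *hadhb* on the opposite strand, and the adjusted p was up to 0.121 over the alternatives. The call was lost without any library of 7 dpt other than *il11a*OE replicate 2. It was also lost with the F libraries alone at 7 mpt and with the replicate number as a block.

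Mitochondrial ribosomal proteins had a difference below 0 in 75 of 75 genes, of which 5 were called (6.67%, against 2.27% of all genes). Their median effect was -0.40 at 7 dpt and -0.98 at 7 mpt. No member was called without any 1 library of 7 dpt or without control replicate 3 of 7 mpt, 1 or 2 were without control replicate 4 or *il11a*OE replicate 1 or 2 of 7 mpt, 3 without *il11a*OE replicate 3 of 7 mpt, and 15 without control replicate 1 of 7 mpt. With the F libraries alone at 7 mpt 0 were called and with the M libraries alone 28. For 90 nuclear genes of the respiratory chain the median effect was -0.59 and -1.17, with 1 called below 0, *ndufa10*, and 1 above 0, *cox7a2b*, whose call was lost in 15 of 28 alternatives. The number of these 90 genes called below 0 was 34 with the M libraries alone at 7 mpt and 1 with the F libraries alone, 10 with separate fits combined, 7 without control replicate 1 of 7 mpt and 11 without *il11a*OE replicate 4 of 7 mpt. Over the alternatives the adjusted p of *ndufa10* was up to 0.14 (edgeR). Its call was lost without any 1 library of 7 dpt and without control replicate 2, 3 or 4 or *il11a*OE replicate 1, 2 or 3 of 7 mpt. It was also lost with the F libraries alone at 7 mpt and with the replicate number as a block. The 13 protein-coding genes of the mitochondrial genome were called lower at both time points, with median effects of -0.69 and -0.96 and no called difference. The share of counts on the mitochondrial genome was 15.9 ± 0.808% in control and 12.5 ± 0.998% in *il11a*OE at 7 dpt (SD, n = 3 each), and 29.0 ± 1.74% and 21.2 ± 1.82% at 7 mpt (SD, n = 4 each). Its part in these results was not tested. The 65 sarcomere genes had median effects of -0.67 and -0.76 and no called difference, but 9 were called below 0 with the M libraries alone at 7 mpt, and 5 with separate fits combined or without *il11a*OE replicate 4 of 7 mpt.

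Genes of protein synthesis and turnover were called higher in *il11a*OE mainly at 7 dpt. Of 16 aminoacyl-tRNA synthetases, which charge tRNAs with amino acids, 13 were called higher at 7 dpt, and at 7 mpt 1 was called higher and 2 lower. The difference was below 0 for all 16 and called for 3, *gars1*, *kars1* and *wars1*, against 2.27% of all genes called below 0. By library the median effect was 0.48 to 0.60 at 7 dpt and -0.19 to -0.02 at 7 mpt. *gars1* was at 63.3, 73.8 and 68.4 CPM in control and at 101, 106 and 98 CPM in *il11a*OE at 7 dpt, and at 75, 74.9, 86.3 and 96.3 against 75.5, 57.4, 75.4 and 78.2 CPM at 7 mpt. The 7 dpt groups were apart and the 7 mpt groups overlapped, and the difference was -0.80 (SE 0.19, edgeR adjusted p = 0.0334). No synthetase was called without any 1 library of 7 dpt, 1 was without control replicate 3 or *il11a*OE replicate 1 or 3 of 7 mpt, and 4 without control replicate 1 of 7 mpt. Among 87 cytosolic ribosomal proteins 42 were called higher at 7 dpt and 1 at 7 mpt, and among 46 proteasome subunits 22 and 4, against 20.2% and 14.2% of all genes. No difference of either list was called, although 14 proteasome genes were called below 0 with the M libraries alone at 7 mpt and 3 with separate fits combined or without control replicate 1 of 7 mpt.

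Endothelial markers had 2 of 38 members called above 0 and 4 below 0, against 2.14% and 2.27% of all genes, with a median effect of -0.35 at 7 dpt and -0.78 at 7 mpt. *tek*, the angiopoietin receptor Tie2 of vessels and endocardium, was at 51.3, 37.3 and 30.3 CPM in control and at 35.18, 53.6 and 37.8 CPM in *il11a*OE at 7 dpt. By 7 mpt it was at 128, 65.1, 94.1 and 90.5 CPM in control and at 26.7, 35.3, 22.9 and 24.3 CPM in *il11a*OE. The groups overlapped at 7 dpt, and at 7 mpt every *il11a*OE library was lower, a difference of -1.90 (SE 0.34, edgeR adjusted p = 0.00791). With the F libraries alone at 7 mpt its adjusted p was 0.0783. *stab2*, a scavenger receptor of lymphatic and venous endothelium, moved the other way, from an effect of 1.36 to 3.57, a difference of 2.2 (SE 0.36, edgeR adjusted p = 0.00523). Without control replicate 1 or 2 of 7 mpt 4 endothelial markers were called above 0, and without *il11a*OE replicate 1 or 2 of 7 dpt 1 was. The number called below 0 was 0 with the F libraries alone at 7 mpt and 9 with the M libraries alone, and 1 or 2 without control replicate 2 or 3 or *il11a*OE replicate 1, 2 or 3 of 7 dpt, or without control replicate 3 or 4 or *il11a*OE replicate 2, 3 or 4 of 7 mpt.

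Of the 56 reversed genes, 39 were lower at 7 dpt and higher at 7 mpt, with median effects of -0.81 and 1.42, and 17 were higher and then lower, with median effects of 0.52 and -0.67. Besides *sparc* and *lum* the former included *clec19a*, a C-type lectin gene, with 14.4, 8.84 and 15.4 CPM in control and 5.09, 6.68 and 7.53 CPM in *il11a*OE at 7 dpt. At 7 mpt it was at 2.64, 2.37, 1.75 and 3.06 CPM in control and at 11.07, 9.44, 10.49 and 10.55 CPM in *il11a*OE. The groups stood apart at both time points on opposite sides, and the difference was 3.07 (SE 0.32, edgeR adjusted p = 3.18e-04). *sik1*, a salt-inducible kinase gene, went from 178, 159 and 170 CPM against 87.7, 93.1 and 77.3 CPM to 101, 88.4, 68.7 and 68.4 CPM against 151, 155, 117 and 112 CPM, control named first. Its difference was 1.67 (SE 0.22, edgeR adjusted p = 0.00165). *foxo1a*, a forkhead factor restrained by insulin signaling, had effects of -0.55 and 1.00, a difference of 1.53 (SE 0.22, edgeR adjusted p = 0.00244). The cholesterol exporter gene *abca1b* had effects of -0.54 and 1.17, with exons that overlap another gene on the opposite strand.

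Among 17 insulin-like growth factor genes 2 were reversed, *igfbp5b* and *igf1*, against 56 of all 21317 genes tested. *igfbp5b*, a binding protein gene, was at 55.7, 75 and 48.8 CPM in control and at 29.4, 24.5 and 29.8 CPM in *il11a*OE at 7 dpt, and at 30.9, 18, 29.4 and 28.7 against 40.6, 96.4, 78.7 and 71.1 CPM at 7 mpt. It lay below control at 7 dpt and above control at 7 mpt, and the difference was 2.51 (SE 0.37, edgeR adjusted p = 0.00314). *igf1*, the growth factor gene, was at or below 2.13 CPM in every library. It had 5, 3 and 5 counts in *il11a*OE at 7 dpt and 0, 0, 4 and 16 counts in control at 7 mpt. Its call was lost without control replicate 1 or *il11a*OE replicate 1, 2 or 3 of 7 dpt and with the replicate number as a block. The adjusted p of *igf1* was up to 0.0882 over the alternatives (edgeR). *bmp6*, a bone morphogenetic protein gene, had effects of -0.62 and 2.26, a difference of 2.86 (SE 0.46, edgeR adjusted p = 0.00507).

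In the opposite direction, *sytl4*, a gene of vesicle exocytosis, was at 38.7, 31.0 and 31.0 CPM in control and at 57.3, 47.5 and 61.9 CPM in *il11a*OE at 7 dpt. The 7 mpt libraries held it at 102, 63.3, 72.9 and 72.0 CPM in control and at 27.0, 30.4, 36.2 and 25.1 CPM in *il11a*OE. Every *il11a*OE library was above control at 7 dpt and below it at 7 mpt, and the difference was -2.12 (SE 0.25, edgeR adjusted p = 7.60e-04). *prdx5*, a peroxiredoxin gene, had effects of 0.60 and -0.58, a difference of -1.19 (SE 0.21, edgeR adjusted p = 0.00795). *ppp1r13l*, a gene of the p53-binding ASPP family, had effects of 0.65 and -0.60, a difference of -1.26 (SE 0.20, edgeR adjusted p = 0.00431). *id2b*, an inhibitor of helix-loop-helix factors, had effects of 0.49 and -1.29. Its call was lost without control replicate 2 of 7 dpt, with the F libraries alone at 7 mpt and with the replicate number as a block. The adjusted p of *id2b* was up to 0.0963 over the alternatives (edgeR).

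A few of the largest differences rested on control replicate 2 of 7 dpt. *tnnt3b*, a fast skeletal muscle troponin gene, was at 0.409, 328 and 3.04 CPM in the 7 dpt controls and had the largest difference of the named genes, 9.38 (SE 2.38, edgeR adjusted p = 0.0457). Without that library it was 3.40 (adjusted p = 0.252). Without it the difference was 3.62 (edgeR adjusted p = 0.176) for the desmosome gene *pkp1b* and 3.52 (adjusted p = 0.108) for the apolipoprotein E gene *apoeb*, neither of them called. For *itga6b*, an integrin alpha gene, it fell from 5.82 to 2.76 but was called (edgeR adjusted p = 0.00213). The difference of *itga6b* was not called without *il11a*OE replicate 1, 2 or 3 of 7 dpt. Nor was it called with the F libraries alone at 7 mpt (edgeR adjusted p = 0.0996) or the M libraries alone (0.103). With the replicate number as a block its adjusted p was 0.153 (edgeR). The remaining gene, *si:ch211-241e1.3*, was not followed further.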

How the data were processed

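Poly(A) RNA of uninjured hearts was sequenced on an Illumina NovaSeq as paired reads. The authors aligned the reads to GRCz11 with HISAT2 and deposited raw counts per gene from featureCounts 2.0.0, on exons of an Ensembl annotation, without using strand and without reads that map to several places or to several genes. Per the file headers, fragments were counted at 7 dpt and single mates at 7 mpt, where 99.1% to 99.4% of the counts above 0 were even numbers, against 47.4% to 48.7% at 7 dpt. Mates of a pair are not independent molecules. Between 67.9% and 75.5% of reads were assigned to genes. The tables were joined on the gene identifier, low genes were removed by edgeR's filterByExpr, TMM factors scaled the library sizes, and a means model of 4 groups was fitted to all 14 libraries (R 4.3.3, edgeR 4.0.16, limma 3.58.1). The contrast was tested with edgeR's robust quasi-likelihood test, two-sided, with Benjamini-Hochberg adjustment over all 21317 genes, and each time point was also fitted alone for its own effect. The fitted effects come from separate fits and therefore sum to the difference only approximately. The code was tested on simulated counts.

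Symbols were matched to 29399 of 32520 gene identifiers. The 52 gene lists and the named genes were chosen with earlier results of these data known. After values had been seen, 51 genes that matched a list's name pattern but do not belong to the family were left out. Named are *il11a*, the genes the study names, the 10 called genes of smallest p and the 5 of largest difference (at 5 CPM or more in a group) in each direction, the 10 reversed genes of smallest p in each direction, and up to 4 called members per list. The genes and counts given in the text are a part of these. Alternatives were DESeq2 size factors in edgeR, DESeq2 1.42.0, limma-voom with weights per sample or per time point, no filter beyond 1 count, no robust dispersion, a minimum of 10 counts in every library, TMM within each table, halved 7 mpt counts, separate fits combined, the replicate number as a block, the letter as a covariate, only F or only M libraries at 7 mpt, and each library left out in turn. A genome sequence and promoters were not used here.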

Additional observations from a re-analysis of the deposited data

Results flagged for a closer look

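The effect of *il11a*OE differed between 7 dpt and 7 mpt for 940 genes, and for 56 of them it was called at both time points in opposite directions. Among the reversed genes named, the difference in the upward direction was 2.83 for *sparc*, 4.42 for *lum*, 3.07 for *clec19a*, 1.69 for *abca1b*, 1.67 for *sik1*, 2.06 for *cfd*, 3.69 for *tgfbr2l*, 1.53 for *foxo1a*, 2.51 for *igfbp5b*, 5.60 for *opn3*, 1.90 for *tnfsf10l*, 7.33 for *igf1* and 2.86 for *bmp6*. In the downward direction it was -2.12 for *sytl4*, -1.26 for *ppp1r13l*, -2.50 for *gas2l3*, -1.19 for *prdx5*, -1.8 for *id2b* and -2.17 for *vit*. *opn3* was at 0.0594 CPM or more in all libraries but 1 and at no more than 1.62 CPM at 7 mpt. For *igf1* the 7 mpt controls held 0, 0, 4 and 16 counts, so the size of its difference is uncertain.

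In 16 of 202 groups of 4 libraries at 7 mpt (7.92%) a library lay far from its group by Dixon's test at the 95% level, which by chance marks about 5% of groups. Among *il11a*OE libraries, replicate 4 was lowest in *mmp2*, at 583.3 CPM, and in *wt1b*, at 34.8 CPM. Replicate 3 was highest in *tfa* (2481 CPM), *rbp4* (696.1 CPM), *timp2b* (336.6 CPM) and the summed liver markers (3311 CPM). Replicate 2 was lowest in *ppp1r13l* (146.6 CPM) and *gars1* (57.4 CPM) and highest in *notch3* (19.7 CPM). Among controls, replicate 3 was highest in *ccnb1* (1.96 CPM), *ppp1r13l* (325.2 CPM) and *gria3b* (0.178 CPM). Replicate 1 was highest in *cyp2r1* (10 CPM) and *lepb* (0.0895 CPM, the other controls being at 0). Replicate 2 was lowest in *igfbp5b* (18 CPM) and highest in the summed oestrogen-induced liver genes (92.7 CPM).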

How the results depend on the processing

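Of 137 called genes followed over 28 alternatives, 14 of them leaving out a library, 0 changed direction and 69 were called in all. *il11a*, whose difference was not called, went from -0.44 to 0.29 with the M libraries alone. Of 52 list medians, 9 changed sign under some alternative. The calls numbered 2005 with DESeq2 (1126 above and 879 below 0), 1516 with voom weights per sample (870 below 0), 1558 with separate fits combined (715 and 843), 1445 with the letter as a covariate (815 below 0) and 2328 with the M libraries alone (1050 and 1278).

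In the order gained, lost, larger and neither, the classes held 732, 482, 438 and 132 genes with DESeq2 (129 reversed, 92 smaller), 555, 459, 349 and 42 with voom weights per sample, 576, 457, 356 and 47 with separate fits, and 592, 582, 657 and 412 with M alone. With the letter as a covariate 388 were lost, 326 larger and 59 neither, and with F alone 191 were gained, 428 lost, 20 reversed, 6 smaller and 268 neither. Voom weights per time point gave 387 lost, and the looser and stricter count filters 14 and 9 of neither. The cause of these shifts was not tested.

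Leaving out each library gave 370 to 1393 calls, 183 to 739 above and 176 to 654 below 0, with 156 to 551 gained, 92 to 357 lost, 20 to 74 reversed, 74 to 320 larger, 19 to 42 smaller and 4 to 49 neither. With a 7 dpt group of 3, leaving out a library leaves 2.

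With the replicate number as a block, 568 genes were called (269 above and 299 below 0, with 217 gained, 158 lost, 108 larger and 5 neither), 473 of them among the 940. The numbers were not shown to pair samples. The deviations of same-numbered control and *il11a*OE libraries from their group means correlated at -0.02, -0.02 and 0.14 at 7 dpt. At 7 mpt these deviations correlated at -0.04, 0.02, 0.04 and 0.06, and not every sample correlated best with its own number.

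The biological coefficient of variation was 0.288 at 7 dpt and 0.464 at 7 mpt, with a median SE of the difference of 0.48. Differences larger than that could still miss the threshold, as the -1.47 of *mki67* did.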

Other observations

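Some transport and signaling genes outside the groups described above had a called difference, at shares of their lists between 4.14% and 9.52%, against 4.41% of all genes. Of 362 solute carrier genes, 9 were called above 0 and 6 below 0 (4.14%), and with each library left out 3 to 18 and 3 to 9. *slc7a6*, an amino acid transporter gene, was at 13 to 13.6 CPM in *il11a*OE and 13.9 to 16.7 CPM in control at 7 dpt, and at 19.7 to 44.8 against 3.08 to 5.88 CPM at 7 mpt, a difference of 2.96 (edgeR adjusted p = 7.60e-04). *sgk1*, a kinase gene induced by glucocorticoids, was at 56.0 to 70.4 CPM in all libraries of 7 dpt, and at 7 mpt at 79.5 to 89.0 CPM in control and 214 to 286 CPM in *il11a*OE, a difference of 1.36 (edgeR adjusted p = 7.52e-04). *dhrs3a*, a retinaldehyde reductase gene, was at 7.85 to 15.5 CPM in all libraries of 7 dpt, and at 5.97 to 10.6 CPM in control and 89.5 to 106 CPM in *il11a*OE at 7 mpt, a difference of 3.31 (edgeR adjusted p = 2.06e-04).

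Of 56 calcium handling, ion channel and gap junction genes, 1 was called above 0 and 4 below 0 (8.93%). Those below 0 numbered 2 without control replicate 2 or *il11a*OE replicate 3 of 7 dpt, control replicate 3 of 7 mpt or *il11a*OE replicate 1 of 7 mpt, and 1 without any other library of 7 dpt. *popdc2*, a cyclic AMP-binding membrane protein of heart muscle, was at 399, 405 and 409 CPM in control and at 378, 388 and 418 CPM in *il11a*OE at 7 dpt, and at 511 to 702 against 204 to 312 CPM at 7 mpt. The groups overlapped at 7 dpt and were apart at 7 mpt, a difference of -1.15 (edgeR adjusted p = 0.0116), and its exons overlap another gene on the opposite strand. Of 21 Notch genes 1 was called in each direction, the ligand gene *jag2b* above 0 with effects of -0.83 and 0.31, and the receptor gene *notch3* below 0 with effects of -0.58 and -1.83. The call of *notch3* was made in only 8 of 28 alternatives, and that of *jag2b* was lost without *il11a*OE replicate 1 of 7 dpt (edgeR adjusted p = 0.0558). Of 39 Wnt ligand, Frizzled and R-spondin genes 2 were called above 0 (5.13%), *fzd7b* with effects of -0.53 and 0.61 and *wnt11* with effects of -1.53 and 0.22. The call of *wnt11* was lost without any 1 library of 7 dpt and without control replicate 2 or 3 or *il11a*OE replicate 1, 2 or 3 of 7 mpt, with an adjusted p of up to 0.112 over the alternatives (edgeR), and that of *fzd7b* without *il11a*OE replicate 1 of 7 dpt (adjusted p = 0.0589).

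*cyp2r1*, a vitamin D 25-hydroxylase gene, was at 0.157 to 0.988 CPM in all libraries of 7 dpt. At 7 mpt it was at 10, 3.42, 4.43 and 3.4 CPM in control and at 0.0398, 0.130, 0.0783 and 0 CPM in *il11a*OE, with every *il11a*OE library far below control. Its difference was -5.56 (SE 1.08, edgeR adjusted p = 0.013), and its exons overlap *CALCB* on the opposite strand. With the replicate number as a block this call was lost (edgeR adjusted p = 0.0515).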
